A study of Mus musculus with 4 samples.

Results

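A set of 10 genes for plasma membrane carriers of glutamine and other neutral amino acids was described in 4 lung tumors of KP mice, a genetic model of lung adenocarcinoma. The genes were found by their symbols in the deposited table of raw counts, and all 10 of the 10 symbols listed were present among 39017 genes. Slc38a1 was selected on its counts in these same libraries, because 1 of the 4 tumors held far more of its mRNA than the others, so its pattern is given as a description with no test. The other 9 genes, Slc38a2, Slc38a4, Slc1a4, Slc1a5, Slc7a5, Slc7a7, Slc7a8, Slc3a2 and Slc6a14, were listed as main carriers of the same substrates, and the spread of their mRNA between tumors was tested. All 10 genes had a mean level of at least 1 CPM, the normalised read count used throughout (counts per 1000000 counts of the library, after scaling for composition).

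The study has a single group of 4 libraries labelled Control, 1 library per tumor, with no normal lung and no second condition beside it. The mice were male, of C57BL/6 background, and carried p53Fl/Fl beside an oncogenic allele, so that Cre starts tumors and deletes p53 in the same cell. Cre came from a lentivirus, lenti.PGK-Cre, whose PGK promoter is not restricted to 1 lung cell type. The virus was given into the trachea, at 1500 viral units per mouse by the sample records, while the study's methods give higher doses for it. Tumors were macrodissected 22 weeks and 5 days later and dissociated, and polyadenylated RNA of the whole suspension was sequenced, host stroma and immune cells included. The genotype label also names a heterozygous floxed allele, without its gene. By the study's methods a control mouse could have both Slc2a1 alleles intact or 1 of them floxed, and which of these each mouse had cannot be told apart here. The age of the mice and whether the 4 tumors came from 4 different mice are not given in the sources used here, so p-values measure only the spread between these libraries.

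Mammalian cells take up glutamine and other neutral amino acids through a few carrier families. The system A carriers of the SLC38 family pull small neutral amino acids into the cell with sodium, and can concentrate them. The SLC1 exchangers swap 1 neutral amino acid for another. Of the SLC7 light chains, those of Slc7a5 and Slc7a8 exchange intracellular amino acids, glutamine among them, for leucine and other large ones. They and the light chain of Slc7a7 reach the membrane only when bound to a heavy chain, the product of Slc3a2. Slc6a14 encodes a carrier with a broad range of neutral and cationic substrates. In starved cells the transcription factor ATF4 raises many of these carriers together with enzymes of amino acid synthesis.

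Members of a family resemble each other in sequence, so the coding sequences were compared first, to see whether reads of 1 gene could be counted for another. Coding sequences of the annotated transcripts were 64.1% identical between Slc38a1 and Slc38a2, 66.1% between Slc38a1 and Slc38a4, 68.1% between Slc1a4 and Slc1a5 and 61.8 to 63.5% among the 3 SLC7 light chains. The longest run of identical bases in any of these 7 pairs was 32 nt, between Slc38a1 and Slc38a4, and was shorter than the 85-nt reads. The stretches that Slc38a1 shares with its family and the longest one of the exchanger pair are shown, from 5′ to 3′ on the coding strand, with the identical bases in capitals.
Slc38a1, coding bases 212 to 283, beside Slc38a4: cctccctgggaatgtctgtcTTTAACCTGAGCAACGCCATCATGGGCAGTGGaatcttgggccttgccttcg
Slc38a4, coding bases 224 to 295: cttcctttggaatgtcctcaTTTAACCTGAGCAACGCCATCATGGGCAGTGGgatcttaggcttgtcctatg
Slc38a1, coding bases 470 to 526, beside Slc38a2: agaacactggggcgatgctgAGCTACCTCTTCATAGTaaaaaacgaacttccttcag
Slc38a2, coding bases 470 to 526: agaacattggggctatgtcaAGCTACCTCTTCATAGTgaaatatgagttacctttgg
Slc1a4, coding bases 1103 to 1162, beside Slc1a5: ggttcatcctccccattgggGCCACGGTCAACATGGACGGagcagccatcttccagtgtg
Slc1a5, coding bases 1169 to 1228: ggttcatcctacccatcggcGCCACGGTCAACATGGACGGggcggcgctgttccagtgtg
In each pair the bases on both sides of the shared run differ between the genes, so a read of 85 nt placed there also covers bases that tell them apart.

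Beyond the family, 8 of the 10 genes had no stretch of 80 nt or longer that matched another annotated gene at 97% identity. Slc3a2 shared such stretches with 40 other genes. Slc7a7 overlaps Oxa1l on the opposite strand, where 232 nt are exon of both genes. Since the strand setting of the counting is not given in the sources used here, reads of that overlap may be split between them.

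Promoter sequences from RefSeq, on GRCm38.p6, were matched for 7 of the 10 genes, in 13 windows of 250 bases before to 50 after an annotated start. Slc38a1, Slc1a5 and Slc7a5 were not among them. The windows were searched on both strands for TGATGNAA, the element at which ATF4 acts with a C/EBP partner on amino acid response genes, and for CACGTG, the E-box of Myc and related factors. TGATGNAA was found for Slc1a4 and Slc7a7, 2 of the 7 genes, and in 3.97% of all 32851 promoter windows of that length. CACGTG was found for 0 of the 7 genes and in 7.15% of all windows, so no match overlapped another motif. The 7 genes had 13 windows, so a count of genes and a share of windows are unlike measures. Neither motif can be read from them as enriched or rare among the carriers. The matches are shown with their flanks, on the strand of the gene, with the element in capitals.
Slc1a4, chr11:20332690-20332737, minus strand: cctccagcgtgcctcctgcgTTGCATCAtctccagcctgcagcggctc
Slc7a7, chr14:54418058-54418105, minus strand: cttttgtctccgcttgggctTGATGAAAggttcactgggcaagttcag
Slc7a7, chr14:54417918-54417965, minus strand: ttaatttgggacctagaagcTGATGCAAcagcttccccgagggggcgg
The Slc1a4 match reads on the opposite strand and runs from base -4 to base 4 around the annotated start. The Slc7a7 matches lie at -141 to -134 and at -1 to 7 of the same start.

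Total counts were between 8151613 and 8799007 per tumor, and 3 counts, the most that a count of 0 allows, corresponded to 0.330 to 0.370 CPM. Without molecular identifiers on the reads, such limits and the intervals given here cover only counting error. Markers of alveolar type 2 cells, the surfactant-making cells that are a main origin of tumors in this model, were high in all tumors. Sftpc, a surfactant protein gene of these cells, was at 17722, 26616, 24926 and 29617 CPM in tumors 1 to 4. The 5 neuroendocrine markers summed to 2.75, 1.39, 1.97 and 2.26 CPM in tumors 1 to 4, and of these only Chga was at 0 counts in all tumors. The biological coefficient of variation between the tumors, over all genes tested, was 30.8%.

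Slc38a1 encodes SNAT1, a system A carrier with glutamine among its main substrates. The gene lies on the minus strand at chr15:96571418-96642913 (GRCm38, GENCODE M21). Its level was 96.7 CPM in tumor 1, 10.5 CPM in tumor 2, 10.9 CPM in tumor 3 and 9.40 CPM in tumor 4, from 879, 90, 88 and 79 counts. Tumor 1 was high and the other 3 tumors were low and close to each other. The 95% exact Poisson interval of tumor 1 was 90.4 to 103 CPM. Those of the others were 8.41 to 12.9, 8.71 to 13.4 and 7.44 to 11.7 CPM and overlapped one another. On the log2 scale tumor 1 lay 3.24 above the mean of the other 3, which is 9.42-fold, and the SD of those 3 was 0.11. Over all 4 tumors the mean was 31.9 CPM ± 43.2 (SD, n = 4) and the SD of log2 CPM was 1.62, rank 91 among 10269 genes with a mean of at least 10 CPM. Without tumor 1 the SD of log2 CPM was 0.11, so the spread of Slc38a1 rested on that library alone. Its gap over the range, the distance of the highest tumor from the next divided by the whole range of log2 CPM, was 0.938. A tumor stood apart by this measure in 5.86% of all 14225 genes with a mean of at least 1 CPM. Of the 10 carriers it did so for Slc38a1 alone.

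**Figure D1:**
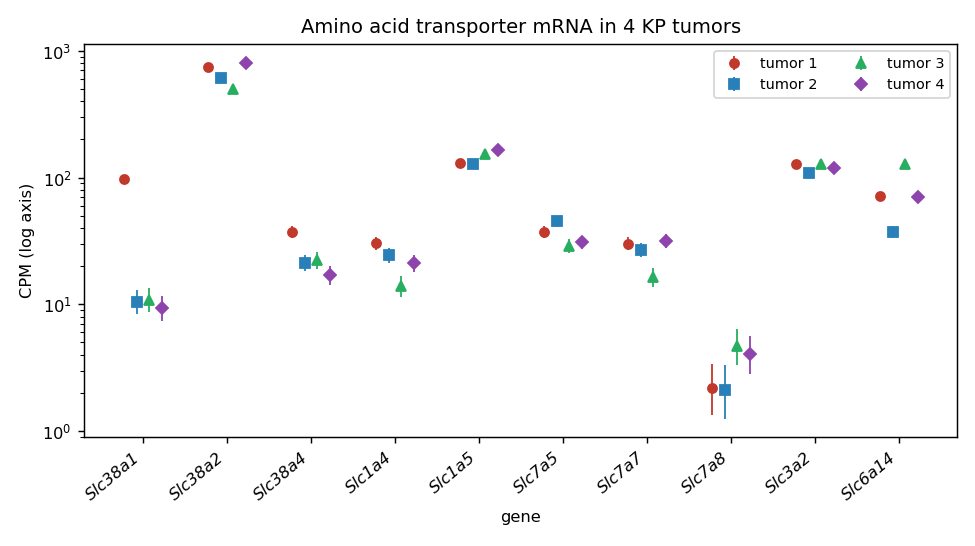
Level of each carrier in each of 4 tumors, in CPM on a log axis, with bars for the 95% exact Poisson interval of the count. Slc38a1 is at 96.7 CPM in tumor 1 and between 9.40 and 10.9 CPM in the others, and Slc38a2 is the highest carrier in every tumor.

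Tumor 1 also differed from the others in markers of epithelial state. The summed level of 4 squamous markers was 29.2 CPM in tumor 1 and 0.929 to 2.97 CPM in the others. This sum rested on the keratin genes Krt14, at 21.0 CPM in tumor 1 and at most 0.833 CPM elsewhere, and Krt6a, at 7.70 CPM in tumor 1 and at most 0.833 CPM elsewhere. Trp63, the defining transcription factor of squamous cells, was at 0 counts in tumor 1. Of 5 general epithelial markers 4 were highest in tumor 1, with a sum of 4430 CPM against 2660 to 2819 CPM. The 8 alveolar type 2 markers summed to 31160 CPM in tumor 1 against 46733 to 55323 CPM, with 0 of 8 highest there, and the 4 club cell markers to 87.3 CPM against 573 to 959 CPM. Proliferation markers summed to 533 CPM in tumor 1 and to 353 to 433 CPM in the others. The part of these differences in the Slc38a1 value was not tested. In bulk RNA, fewer cells of a type and less RNA per cell cannot be told apart.

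**Figure D2:**
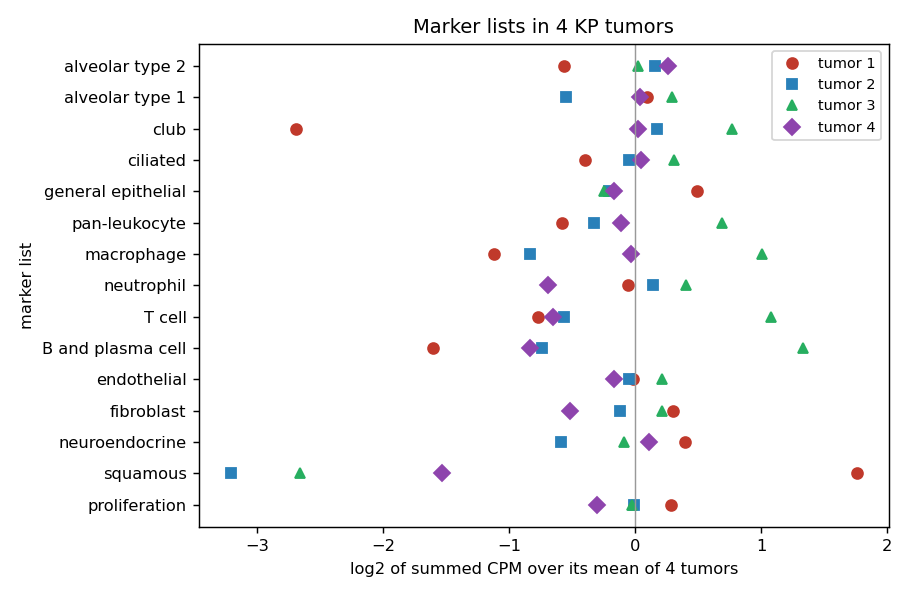
Summed CPM of each marker list in each of 4 tumors, as log2 of its ratio to the mean of the 4 tumors. Tumor 1 is highest for the squamous and general epithelial lists and lowest for the club and alveolar type 2 lists, and tumor 3 is highest for the leukocyte and macrophage lists.

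Slc38a1 has 2 family members among the carriers on the same chromosome, all on the minus strand. Slc38a2 lies 44.5 kb from it at chr15:96687392-96699730, and Slc38a4 lies 295 kb beyond Slc38a2 at chr15:96994820-97055956. Within 1 Mb on either side the count table held 19 other genes, of which 10 had a mean of at least 1 CPM. Tumor 1 was the highest tumor for 1 of these 10, Slc38a4. For all genes tested it was the highest in 31.4%. On the other side of Slc38a1, Scaf11, which encodes a splicing-related protein, was at 199, 211, 194 and 200 CPM in tumors 1 to 4. Arid2, a chromatin remodeling subunit, was at 98.9, 110, 93.7 and 133 CPM, and 2610037D02Rik was at 6.16, 4.76, 6.91 and 10.7 CPM. Ano6, a phospholipid scramblase gene, was at 150, 190, 167 and 192 CPM. Tumor 1 minus the mean of the others was -0.02 for Scaf11, -0.17 for Arid2, -0.20 for 2610037D02Rik and -0.28 for Ano6 in log2 CPM, against 3.24 for Slc38a1. On the far side of Slc38a4, Amigo2 was at 1.54, 3.72, 15.8 and 3.69 CPM and Pced1b at 5.06, 4.07, 12.2 and 6.30 CPM, with tumor 3 the highest for both. The nearest genes with a mean of at least 1 CPM on either side, Slc38a2 at 0.25 and Scaf11, thus held no excess in tumor 1 near that of Slc38a1.

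**Figure D3:**
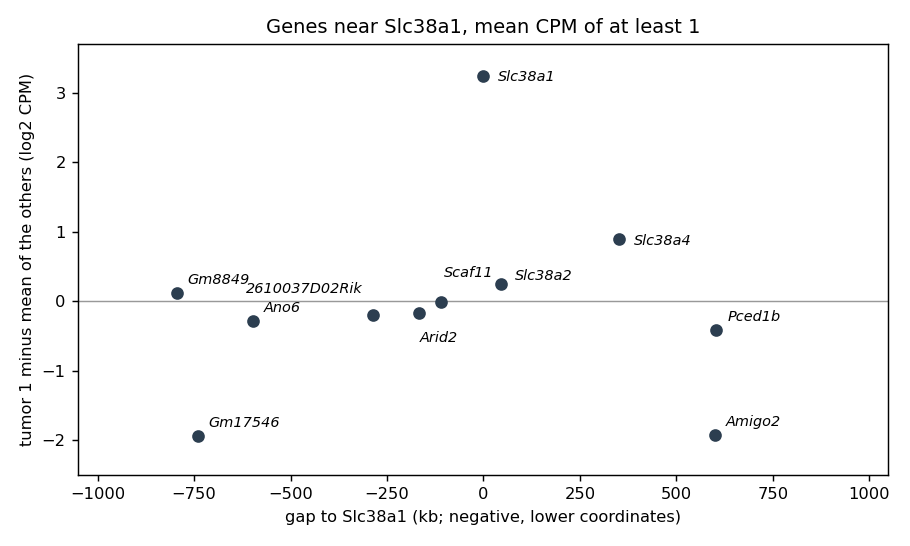
Tumor 1 minus the mean of the other 3 tumors, in log2 CPM, for genes within 1 Mb of Slc38a1 that had a mean of at least 1 CPM, against the gap to Slc38a1 in kb. Slc38a1 is at 3.24, Slc38a4 at 0.89 and Slc38a2 at 0.25, and Amigo2 is at -1.93.

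The 5 protein-coding genes whose log2 levels, centred over the 4 tumors, lay nearest to those of Slc38a1 were Dab2, Slc4a11, Kcne3, Fabp4 and Man1c1, of 9870 compared by Euclidean distance at a mean of at least 10 CPM. Dab2, an adaptor of receptor endocytosis, was at 372, 59.2, 67.3 and 45.0 CPM in tumors 1 to 4, at a distance of 0.52. Slc4a11, a membrane transporter gene, was at 36.3, 5.23, 3.09 and 3.81 CPM, and Kcne3, a potassium channel subunit, at 30.6, 5.34, 6.91 and 4.52 CPM. Fabp4, a fatty acid binding protein, was at 77.2, 6.97, 5.68 and 11.1 CPM, and Man1c1, a mannosidase of the Golgi, at 62.8 CPM in tumor 1 and 9.53 to 20 CPM in the others. All 5 were highest in tumor 1, which follows from the choice of the nearest genes. The list depended on single libraries, and without tumor 1, tumor 2, tumor 3 or tumor 4 it kept 0, 2, 3 and 3 of the 5 genes.

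Slc38a2 encodes SNAT2, the widely expressed system A carrier that cells raise on amino acid starvation. It was at 744, 612, 504 and 799 CPM in tumors 1 to 4, with a mean of 665 CPM ± 133 (SD, n = 4). Tumor 4 was the highest and tumor 3 the lowest, 1.58-fold apart, and the Poisson intervals of all 6 pairs of tumors were separate. Its spread passed the chi-square test against counting noise (adjusted p = 1.93e-141), and its SD of log2 CPM was 0.30. Without tumor 3 that SD was 0.20. Of all 14225 genes tested, 76.7% passed the same test, and of genes with a mean of 100 to 1000 CPM 96.8% did, so a call by itself sets no carrier apart from other genes.

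Slc38a4, a system A carrier known mainly from liver and placenta, was at 37.0, 21.3, 22.2 and 16.9 CPM in tumors 1 to 4. Tumor 1 was the highest, its interval separate from each of the other 3 and the intervals of those 3 overlapping. The mean was 24.3 CPM ± 8.74 (SD, n = 4), the SD of log2 CPM was 0.48, and the spread passed the test (adjusted p = 3.81e-17). Without tumor 1 the call was lost (adjusted p = 0.0545, Benjamini-Hochberg over all genes) and the SD of log2 CPM was 0.21. Tumor 4, the highest for Slc38a2, was the lowest for Slc38a4.

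Of the SLC1 exchangers, Slc1a5 encodes ASCT2, the carrier best known for glutamine uptake by tumor cells, and lies at chr7:16781340-16798274 on the plus strand. It was at 130, 129, 153 and 166 CPM in tumors 1 to 4, with a mean of 144 CPM ± 18.1 (SD, n = 4). Tumors 3 and 4 were the higher ones, and the highest was 1.29-fold above the lowest. The spread passed the test (adjusted p = 4.56e-12), but its SD of log2 CPM of 0.18 was below the median of 0.22 for genes at 100 to 1000 CPM. Slc1a4 encodes ASCT1, an exchanger of alanine, serine and cysteine, at chr11:20302180-20332713 on the minus strand. It was at 30.4, 24.3, 13.9 and 21.1 CPM, lowest in tumor 3 and highest in tumor 1, with a mean of 22.4 CPM ± 6.84 (SD, n = 4; adjusted p = 6.15e-11 by the chi-square test with Benjamini-Hochberg adjustment). Its SD of log2 CPM was 0.47, and 0.27 without tumor 3. In tumor 3 Slc1a4 was thus at its lowest and Slc1a5 above its level in tumors 1 and 2.

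The heavy chain gene Slc3a2, at chr19:8706882-8723369 on the minus strand, varied least of the 10. It was at 127, 109, 127 and 119 CPM in tumors 1 to 4, with a mean of 120 CPM ± 8.61 (SD, n = 4). Tumor 2 was the lowest, and the highest tumor was 1.17-fold above it. The SD of log2 CPM was 0.11, rank 9322 of 10269 genes. The spread passed the test (adjusted p = 0.00194), and without tumor 2 it did not (adjusted p = 0.322), with an SD of log2 CPM of 0.05.

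Slc7a5 encodes LAT1, the light chain for leucine and other large neutral amino acids that is raised in many tumors, at chr8:121881150-121907694. It was at 37.4, 45.3, 28.8 and 30.8 CPM in tumors 1 to 4, with a mean of 35.6 CPM ± 7.47 (SD, n = 4; adjusted p = 3.55e-08 by the chi-square test). Tumor 2 was the highest, 1.58-fold above tumor 3. The SD of log2 CPM was 0.30, and 0.20 without tumor 2. Slc7a7, at chr14:54369442-54417780, encodes a light chain that exports cationic amino acids against neutral ones and is known from kidney, intestine and macrophages. It was at 30.1, 26.9, 16.4 and 31.5 CPM, with a mean of 26.3 CPM ± 6.84 (SD, n = 4). Tumor 3 lay below the other 3, which had overlapping intervals, and the spread passed the test with all tumors (adjusted p = 4.64e-09) but not without tumor 3 (adjusted p = 0.259, SD of log2 CPM 0.12 against 0.43).

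Slc7a8 encodes LAT2, a light chain of epithelia, and lies 304 kb from Slc7a7 at chr14:54722209-54781946. It was the lowest carrier, at 2.20, 2.09, 4.69 and 4.04 CPM in tumors 1 to 4, with a mean of 3.26 CPM ± 1.31 (SD, n = 4; adjusted p = 0.00540 by the chi-square test). Tumors 3 and 4 were above tumors 1 and 2, but at this depth only 1 of 6 pairs of tumors had separate intervals. The SD of log2 CPM of 0.59 compares with a median of 0.49 for genes at 1 to 10 CPM. By point values Slc7a7 and Slc7a8 had opposite extremes in tumor 3, and Slc7a5 was also at its lowest there. For Slc7a8 and Slc7a5 the intervals of tumors 3 and 4 overlapped.

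Slc6a14 encodes a sodium- and chloride-driven carrier of neutral and cationic amino acids found in lung and intestinal epithelium, at chrX:21714896-21742355 on the plus strand. It was at 71.0, 37.1, 127 and 69.7 CPM in tumors 1 to 4, with a mean of 76.2 CPM ± 37.3 (SD, n = 4). Tumor 3 was the highest and tumor 2 the lowest, 3.43-fold apart, and tumors 1 and 4 lay between them with overlapping intervals. The spread passed the test (adjusted p = 6.15e-98). Its SD of log2 CPM of 0.73, rank 562 of 10269 genes, was the largest of the 9 tested carriers and compares with a median of 0.25 for genes at 10 to 100 CPM. Without tumor 2 it was 0.49 and without tumor 3 it was 0.53.

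Tumor 3, in which Slc6a14 was at its highest and Slc38a2, Slc1a4, Slc7a5 and Slc7a7 at their lowest, had the highest summed levels of leukocyte markers. Pan-leukocyte markers summed to 252 CPM in tumor 3 and 104 to 144 CPM in the others, with 4 of 4 highest in tumor 3. Macrophage markers summed to 1033 CPM against 236 to 502 CPM, with 7 of 7 highest in tumor 3. B and plasma cell markers summed to 90.9 CPM against 11.9 to 21.6 CPM, with 5 of 6 highest in tumor 3, and T cell markers to 22.1 CPM against 6.16 to 7.09 CPM. Tumor 3 was also the highest for the club cell markers, at 959 CPM against 87.3 to 637 CPM, and for the alveolar type 1 markers, at 1969 CPM against 1097 to 1710 CPM. The 5 general epithelial markers summed to 2660 CPM in tumor 3 and 2741 to 4430 CPM in the others. Among them Epcam, an epithelial surface marker, was lowest in tumor 3, at 218 CPM against 371 to 600 CPM. Cdh1, Krt8, Krt18 and Krt19 were not lowest there. Endothelial markers summed to 235, 230, 275 and 212 CPM and fibroblast markers to 565, 423, 532 and 321 CPM in tumors 1 to 4. Oxa1l, which shares exon bases with Slc7a7, had 370, 350, 212 and 451 counts in tumors 1 to 4 and was likewise lowest in tumor 3. The part of these markers and of Oxa1l reads in the carrier levels was not tested. By point values tumor 3 was the lowest tumor for 4 of the 9 tested carriers, and for 32.5% of all genes tested. Of these 4, Slc7a5 had an interval in tumor 3 that overlapped that of tumor 4.

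**Figure D4:**
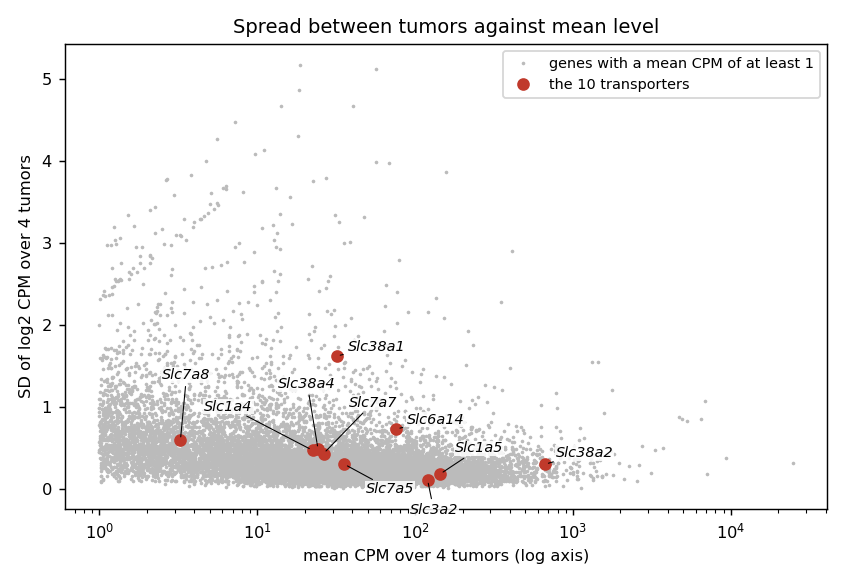
SD of log2 CPM over 4 tumors against mean CPM on a log axis, with 14225 genes in grey and the 10 carriers in red. Slc38a1 is at an SD of 1.62 and Slc6a14 at 0.73, and Slc3a2 is at 0.11, near the bottom of the genes of its level.

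All 9 tested carriers passed the test of spread, against 76.7% of all genes, and their median SD of log2 CPM was 0.43 against 0.29 for all genes. The test was also passed by 81.1% of genes at 10 to 100 CPM, so these values describe the carriers and do not set them apart from other genes. Tumor 1 was the highest for 3 of the 9, Slc38a4, Slc1a4 and Slc3a2. For Slc3a2 tumors 1 and 3 were both at 127 CPM after rounding, with overlapping intervals, so that place is close to a tie. Tumor 4 was the highest for Slc38a2, Slc1a5 and Slc7a7, tumor 3 for Slc7a8 and Slc6a14, and tumor 2 for Slc7a5. For Slc1a4, Slc1a5, Slc7a5, Slc7a7 and Slc7a8 the intervals of the highest tumor and the next also overlapped, so counting error leaves these places unsettled. By point values alone, no tumor had the highest level of more than 3 of these carriers.

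Levels of different genes were compared per kilobase of merged exons, the union of all annotated exons of a gene. Slc38a2 had the highest level of the 10, at 75.2 CPM per kilobase ± 15.0 (SD, n = 4), or 37.9% of the summed level of all 10. Slc1a5 followed at 34.6 ± 4.33 CPM per kilobase and Slc3a2 at 34.1 ± 2.44 CPM per kilobase. Slc6a14 was at 22.2 ± 10.9, Slc7a5 at 9.59 ± 2.01 and Slc7a7 at 7.92 ± 2.06 CPM per kilobase. Slc38a4 was at 5.71 ± 2.05, Slc1a4 at 5.71 ± 1.74, Slc38a1 at 1.85 ± 2.51 and Slc7a8 at 0.651 ± 0.262 CPM per kilobase (SD, n = 4 each). Between neighbors in this order, Slc38a2 was above Slc1a5 in 4 of 4 tumors, by 1.11 ± 0.33 (SD) on the log2 scale. Slc1a4 was above Slc38a1 in 4 of 4 tumors, by 2.40 ± 1.35, but only with merged exons as the length. Per kilobase of the longest transcript their means were 5.71 and 4.38 CPM, and in tumor 1 Slc38a1 was the higher. Since Slc38a1 was selected for its values, its pair is a description only. A difference was taken as beyond the spread where its mean exceeded its SD and its sign was the same in 4 of 4 tumors, and no other neighbors met both. Slc3a2 was above Slc6a14 by 0.75 ± 0.64 and Slc6a14 above Slc7a5 by 1.10 ± 1.00, each in 3 of 4 tumors. Slc38a1 was the tenth and last carrier when tumor 1 was left out, and sixth by CPM with no length. Its merged exons are 17236 nt and its longest transcript 7266 nt, and per kilobase of either it was ninth.

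**Figure D5:**
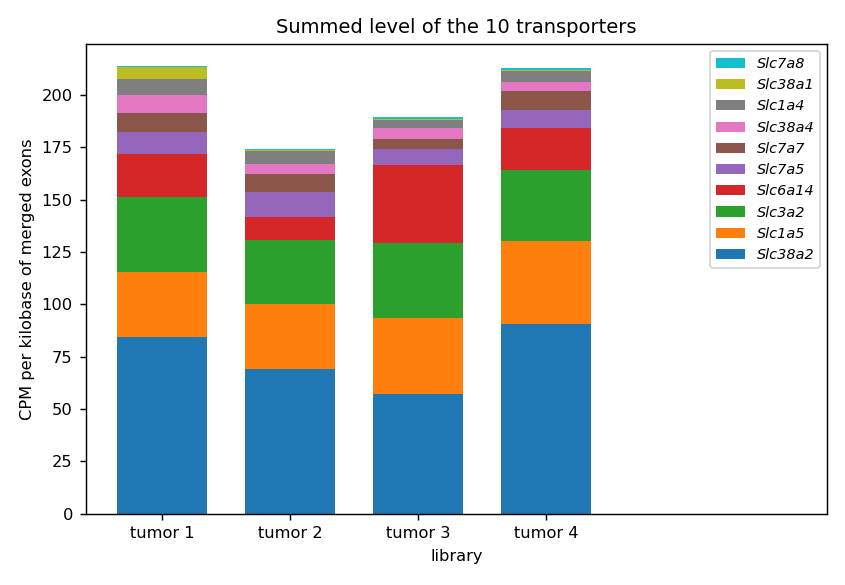
Level of the 10 carriers in each of 4 tumors, stacked, in CPM per kilobase of merged exons. The sum is 214, 174, 190 and 213 in tumors 1 to 4, Slc38a2 is the largest part of each bar, and Slc6a14 is widest in tumor 3.

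The summed level of the 10 carriers was 214, 174, 190 and 213 CPM per kilobase in tumors 1 to 4, or 198 ± 19.1 (SD, n = 4). The SLC38 carriers held 46.1, 42.9, 33.2 and 44.6% of it, lowest in tumor 3. Slc6a14 held 9.68, 6.19, 19.5 and 9.54%, highest in tumor 3. The exchangers Slc1a4 and Slc1a5 held 18.2% in tumor 1 and 21.2 to 21.3% in the others. Even in tumor 1, Slc38a1 was a small part of system A mRNA, with 5.70% of the summed SLC38 carriers, against 0.811, 1.00 and 0.575% in tumors 2 to 4. Counted per kilobase of the longest transcript these shares were 9.22, 1.35, 1.67 and 0.950%. Slc38a2 was 15.0 times Slc38a1 in tumor 1, and 90.5 to 166 times in the other tumors. Per kilobase of the longest transcript the ratio was 9.14 in tumor 1 and 55.1 to 101 in the others.

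Log2 differences of CPM per kilobase were taken within each tumor for 8 pairs of carriers, and their means were tested by flipping signs over the 4 tumors (exact permutation test, two-sided). With 4 tumors the smallest p this test can give is 0.125, so no pair could pass 0.05. Slc1a5 was above Slc1a4 in 4 of 4 tumors, by 2.00, 2.32, 3.36 and 2.89, with a mean of 2.64 ± 0.60 (SD, n = 4; exact p = 0.125, 0.167 after adjustment over 8 pairs), and 6 of the 8 pairs had this p. Slc38a2 was above Slc38a4 by 3.76 ± 0.54 and above Slc1a5 by 1.11 ± 0.33 in 4 of 4 tumors. Among the light chains Slc7a5 was above Slc7a8 by 3.92 ± 0.87 in 4 of 4 tumors, and Slc7a8 minus Slc7a7 was -3.63 ± 0.90, below 0 in 4 of 4 tumors. Slc7a5 and Slc7a7 differed by 0.15, 0.59, 0.64 and -0.19, a mean of 0.30 ± 0.40 (exact p = 0.375), and per kilobase of the longest transcript the mean was -0.17. Slc6a14 minus Slc1a5 was -0.76 ± 0.65, below 0 in 3 of 4 tumors (exact p = 0.250, 0.286 after adjustment), and it was 0.02 in tumor 3. The mean of that pair was -1.34 per kilobase of the longest transcript.

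The heavy chain was set against the 3 light chains, which need it at the membrane. Slc3a2 was 1.83, 1.48, 2.63 and 1.82 times the summed light chains in tumors 1 to 4, so its level per kilobase was above theirs in 4 of 4 tumors, by 0.92 ± 0.34 on the log2 scale (SD, n = 4; exact p = 0.125). The ratio was highest in tumor 3, where the summed light chains were lowest, at 13.6 CPM per kilobase against 18.6 to 20.8. Slc7a5 made up 51.4, 58.8, 56.8 and 44.6% of the light chains, Slc7a7 46.3, 39.2, 36.3 and 51.1%, and Slc7a8 2.24, 2.01, 6.87 and 4.34%. Slc7a8 was thus the smallest part of the light chain mRNA in every tumor. Slc3a2 also serves light chains that are not among the 10, such as Slc7a6 and Slc7a11. Slc7a6 alone was at 17.5, 20.6, 19.4 and 17.9 CPM per kilobase in tumors 1 to 4, and Slc7a11 at 0.782 to 2.22. The ratios above cover only the 3 light chains of the set. They do not show an excess of Slc3a2 over all light chains that it serves.

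Of 40 other amino acid carriers, 24 had a mean of at least 1 CPM and 20 of these, or 83.3%, varied beyond counting noise, with a median SD of log2 CPM of 0.51. Of all genes tested 76.7% did, with a median SD of 0.29, so the share called was near that of other genes. Tumor 1 was the highest for 5 of the 24, against 31.4% of all genes, and the lowest for 11, against 4321 of 14225 genes. Tumor 3 was the highest for 11 of the 24, against 4291 of 14225 genes. The carriers with the highest levels per kilobase were Slc7a6, a further light chain, at 80.1, 94.1, 88.5 and 81.8 CPM, and the SLC38 member Slc38a10, at 143, 115, 74.9 and 106 CPM. Slc43a2, a carrier of large neutral amino acids, was at 111, 109, 78.2 and 83.0 CPM, and Slc6a9, a glycine carrier, at 34.9, 38.8, 50.5 and 47.1 CPM. The 4 carriers with the largest SD of log2 CPM had lower mean CPM than these. Slc1a3, a glutamate carrier, was at 43.2, 22.2, 5.68 and 44.7 CPM. Slc6a15, a carrier of branched-chain amino acids, was at 0.550, 2.32, 10.1 and 2.62 CPM. The cystine carrier pair Slc3a1 and Slc7a9, heavy and light chain of 1 complex, was at 11.8, 13.4, 1.48 and 5.59 CPM and at 4.95, 4.18, 0 and 2.26 CPM. Both chains of this complex were lowest in tumor 3, where Slc7a9 had 0 counts, which allows up to 0.370 CPM.

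Genes of the amino acid response were read beside the carriers, since many carriers belong to it. Of 19 genes 17, or 89.5%, varied beyond counting noise, with a median SD of log2 CPM of 0.33, near the 76.7% and 0.29 of all genes tested and the 81.1% called at 10 to 100 CPM. The list had no common order: tumors 1 to 4 were the highest for 4, 5, 8 and 2 of the 19 genes, and tumor 3 was the lowest for 6. Atf4, the transcription factor of the response, was at 171, 162, 156 and 190 CPM in tumors 1 to 4. It was lowest in tumor 3 and highest in tumor 4, as Slc38a2 was. Asns, of the same list, had the reverse extremes, at 72.8, 73.4, 82.8 and 60.1 CPM in tumors 1 to 4. Phgdh, the first enzyme of serine synthesis, had one of the largest spreads, at 68.2, 27.6, 6.17 and 40.2 CPM, lowest in tumor 3 and highest in tumor 1, as Slc1a4 was. Psat1, the next enzyme of that pathway and the highest of the list by CPM without regard to length, was at 209, 216, 199 and 144 CPM and did not share that order. Stc2, a secreted stress-induced glycoprotein, was at 2.86, 0.465, 0.987 and 0.714 CPM, and Cth, which makes cysteine from cystathionine, at 4.18, 14.2, 6.91 and 10.9 CPM. With 4 tumors no relation between these genes and the carriers was computed.

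Genes that use glutamine inside the cell varied in 10 of 12 cases, or 83.3%, with a median SD of log2 CPM of 0.38, near the 76.7% and 0.29 of all genes tested. Gls2, the liver-type glutaminase and a known p53 target, was at 6.38, 1.05, 1.85 and 1.31 CPM, highest in tumor 1 like Slc38a1 but at low counts. Gfpt1, which spends glutamine on hexosamine synthesis and was the highest of the list by CPM without regard to length, was at 328, 633, 564 and 383 CPM, lowest in tumor 1. Got1, the cytosolic aspartate aminotransferase, was at 55.5, 55.1, 74.7 and 35.6 CPM. Tumor 1 was the highest for 4 of the 12 genes, near the 31.4% of all genes.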

How the data were processed

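RNA of 4 KP lung tumors, 1 library each and 1 group, was sequenced as 85-nt single-end reads from TruSeq stranded polyA libraries made from 500 ng of total RNA. The authors aligned reads to mm10 with HISAT2, and the submitters' processing notes name cutadapt 1.4.2, featureCounts 1.4.4, bcl2fastq 2.17 and edgeR. The strand setting and annotation release are not given in the sources used here. The deposited counts are raw reads per gene, and the deposited log2 table holds values that the authors made with TMM and voom. The combined and single count tables were equal in 156068 of 156068 values.

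CPM was the count scaled to the total times a TMM factor (edgeR 4.0.16), and log2 CPM was taken after adding 0.5 to each count and 1 to each scaled total. For genes with a mean of at least 1 CPM, the 4 counts were tested against Poisson expectations by a chi-square test with 3 degrees of freedom, with Benjamini-Hochberg adjustment over 14225 genes at 0.05. Library totals of 8151613 to 8799007 counts set the precision. Intervals are exact Poisson at 95%. Lengths and positions came from GENCODE M21 (GRCm38), shared stretches from BLAST 2.17.0, coding alignments from Biopython 1.88. The tests were tried on simulated data first. Alternatives were DESeq2 1.42.0 size factors and dispersions, library size only, other filters, other added counts, the deposited log2 table, other lengths and each tumor left out.

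Genes were named by rule: all 10 carriers; of the other carriers the 4 highest per kilobase and the 4 of largest SD; of the amino acid response and glutamine lists the 3 of largest SD and the highest; the 5 genes nearest to Slc38a1 in pattern; and the 8 nearest on the chromosome at a mean of at least 1 CPM. Oxa1l, Slc7a11, Atf4, Asns and single markers were named outside it, after values were seen. Some items are not reported here. All 40 other carriers were matched, 1 by an older symbol. The carriers and all lists were chosen with earlier results of these data known.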

Additional observations from a re-analysis of the deposited data

Results flagged for a closer look

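Of the 10 carriers, 1 had a tumor far from the others by its gap over the range of log2 CPM: Slc38a1, at 96.7 CPM in tumor 1 against 9.40 to 10.9 CPM. Normal noise passes this limit in about 5% of groups of 4, and 5.86% of all genes tested passed it. Slc38a1 was selected for this value, so it is no independent result.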

How the results depend on the processing

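The main results were computed again under each alternative. The excess of tumor 1 in Slc38a1 was 3.17 to 3.30 on the log2 scale under 7 alternatives. In the chi-square and likelihood ratio tests the 9 tested carriers stayed called in 77 of 80 combinations of carrier and alternative, and the 3 lost calls were Slc38a4 without tumor 1, Slc3a2 without tumor 2 and Slc7a7 without tumor 3. Of all genes tested, 53.5 to 88.6% were called under these alternatives. By a DESeq2 gene-wise dispersion above 0.01, 8 of the 9 were called and Slc3a2 was not, at 0.00438, against 74.6% of all genes. Of the other amino acid carriers 10 varied beyond counting noise at a mean of at least 20 CPM, where 11 were tested, against 20 of 24. Of all genes 88.6% varied at that level, against 76.7% at a mean of at least 1 CPM. Slc7a5 minus Slc7a7 turned to -0.17 with the longest transcript. In the order of levels, 2 carriers changed place with the longest transcript, 4 with CPM and no length, and 0 to 4 when a tumor was left out. Of the 5 genes nearest to Slc38a1, 3 were kept at a mean of at least 1 CPM and 0 to 3 when a tumor was left out. The cause of these changes was not tested, beyond the smaller number of genes tested at 20 CPM. No paired analysis was possible because the libraries form 1 group, with no second group to pair samples with. The carrier pairs were compared within each tumor. With 4 tumors no permutation p could go below 0.125, and levels near 3 counts could not be told from 0.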
